A study of Mus musculus with 9 samples.

Results

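Gene expression in lumbar dorsal root ganglia after platinum chemotherapy was compared by taking the libraries of both drugs, cisplatin and oxaliplatin, as 1 side of 6 libraries and the vehicle libraries as the other side of 3. The libraries were taken by their labelled treatment and make up 9 of the 9 libraries of the series. All genes were eligible, and 17348 of the 38926 genes in the files passed the filter on low counts and were tested. Every library held RNA pooled from 4 male C57BL/6 mice, labelled wild type (WT) and 8 to 10 weeks old. The RNA came from the L3, L4 and L5 ganglia on the side of the treated paws. The mice of the 3 cisplatin pools and of the 3 oxaliplatin pools had each received a cumulative 40 µg of their drug by intraplantar injection, and those of the 3 vehicle pools had received vehicle, whose content is not given in the sources used here. The number of injections and the time from the last one to collection are not given either. The ganglia were whole, so that a lower level of a transcript in fewer cells of a type and in cells with less RNA cannot be told apart, and each p-value measures the spread between pools and not between single mice.

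In a dorsal root ganglion, sensory neurons that serve skin, muscle and viscera lie wrapped in satellite glia, among Schwann cells, fibroblasts, vessels and resident macrophages. Because these ganglia lie outside the blood-brain barrier, platinum reaches the neurons and binds their DNA, and pain, numbness and, for oxaliplatin, sensitivity to cold are the well-known side effects of both drugs. Cisplatin carries ammine and chloride ligands, and oxaliplatin carries a diaminocyclohexane ligand and an oxalate leaving group, while both form crosslinks between neighbouring purines.

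Gene reads ranged from 22819185 to 32022672 in the vehicle libraries and from 31971613 to 38808509 in the drug libraries. Levels are given as CPM, a gene's reads scaled to a common library total that was itself adjusted for composition (TMM), and 3 counts, the floor used, stand for between 0.0711 and 0.188 CPM. The tissue label fitted the markers, since the sensory neuron genes Prph, which encodes peripherin, and Avil, which encodes advillin, were at means of 1576 and 842 CPM in vehicle. Vehicle library 2 stood apart: 47.7% of its uniquely aligned reads lay outside genes and 32.9% of its gene reads fell on its 10 most abundant genes, against 26.2 to 26.8% and 7.67 to 7.81% in the other vehicle libraries. In the 6 drug libraries the reads outside genes made up 16.6 to 19.1%, below every vehicle library (two-sided exact permutation test, 6 against 3, p = 0.0238, the smallest such a design allows, and 0.0714 adjusted over 6 library properties). The drug and vehicle libraries lay on opposite sides of the first principal component, which held 51.9% of the variance of the log2 CPM values. Counts over all genes are therefore also given without vehicle library 2, and a count of a gene list where leaving it out moved that count by over 1.5 times.

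The genes that changed included transcripts of blood cells, among which globins and eosinophil and neutrophil granule genes rose, and transcripts of neurons, among which the imprinted non-coding RNA Meg3 and the synaptic scaffold gene Pclo fell. RefSeq promoter sequence of GRCm38.p6, available for 12278 of the 17348 tested genes, is shown for 4 of them: Epx and S100a9, which encode eosinophil peroxidase and a calcium-binding protein of neutrophils, the alpha globin gene Hba-a2, and Meg3. Each window covers 240 bases, from 250 to 11 bases before the RefSeq start, 5′ to 3′ along the gene: chr11:87875547-87875786 on the minus strand for Epx, chr11:32296242-32296481 on the plus strand for Hba-a2, chr3:90695732-90695971 on the minus strand for S100a9 and chr12:109540746-109540985 on the plus strand for Meg3. Capitals mark 4 motifs searched on both strands: TATAAA for the TATA box, CCAAT for the CCAAT box, AGATAA for GATA factors and TGACGTCA for the cyclic AMP response element.
Epx: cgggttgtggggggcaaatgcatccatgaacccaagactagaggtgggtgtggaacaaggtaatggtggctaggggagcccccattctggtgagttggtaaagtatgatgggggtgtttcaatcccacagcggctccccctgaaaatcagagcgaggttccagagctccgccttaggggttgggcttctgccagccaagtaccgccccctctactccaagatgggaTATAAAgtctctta
Hba-a2: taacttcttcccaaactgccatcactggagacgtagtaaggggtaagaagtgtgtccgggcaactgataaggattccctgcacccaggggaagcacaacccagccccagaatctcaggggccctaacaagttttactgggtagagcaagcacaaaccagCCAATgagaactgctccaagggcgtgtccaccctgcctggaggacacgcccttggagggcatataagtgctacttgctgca
S100a9: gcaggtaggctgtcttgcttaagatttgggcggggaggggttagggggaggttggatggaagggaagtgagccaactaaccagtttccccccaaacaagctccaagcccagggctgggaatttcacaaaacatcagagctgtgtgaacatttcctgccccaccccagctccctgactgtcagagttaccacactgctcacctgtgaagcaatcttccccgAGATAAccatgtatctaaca
Meg3: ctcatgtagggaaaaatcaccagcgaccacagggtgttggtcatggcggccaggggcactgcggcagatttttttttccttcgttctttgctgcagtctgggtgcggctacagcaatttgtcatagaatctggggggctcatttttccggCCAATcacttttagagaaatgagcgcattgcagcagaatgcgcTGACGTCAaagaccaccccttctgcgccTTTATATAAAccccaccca
In Epx the marked letters are TATAAA starting 24 bases before the start, in Hba-a2 they are CCAAT starting 91 bases before it, and in S100a9 they are AGATAA starting 30 bases before it. The Meg3 window holds CCAAT at 100 bases, TGACGTCA at 57 bases and, overlapping each other, TATAAA on the opposite strand at 29 bases and on the same strand at 25 bases before the start. Over all tested genes with a promoter, 8.41% held the TATA letters, 38.9% the CCAAT letters, 7.37% the GATA letters and 2.60% the cyclic AMP element in a window of the same length. A match describes the letters only, and binding was not measured here.

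In the 6 drug libraries 3505 genes were higher than in vehicle and 4533 were lower, which are 20.2% and 26.1% of the 17348 genes tested (edgeR quasi-likelihood test, Benjamini-Hochberg adjusted p under 0.05). Most of these changes were small, and 286 of the higher and 385 of the lower genes changed at least 2-fold. The median change over all tested genes was 0.01 on the log2 scale, and the 95% interval of a change had a median width of 0.17 to either side. Against a change of 1.5-fold as the null value, 62 genes (0.357%) were higher and 463 (2.67%) were lower. Counted without a test, all 6 drug libraries lay above all 3 vehicle libraries in 2822 genes (16.3%) and below them in 3949 (22.8%). Without vehicle library 2, 3907 of 17711 genes were higher (22.1%) and 4291 were lower (24.2%). The split between higher and lower rests on the scaling of the library totals: with unscaled totals 7701 genes were higher and 1182 lower, with the median over all genes at 0.30, and with unscaled totals and without vehicle library 2 there were 6760 and 2769, with the median at 0.17. A length and GC correction, which removed from each library its trend with exon length and GC content, was run as another setting.

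**Figure D1:**
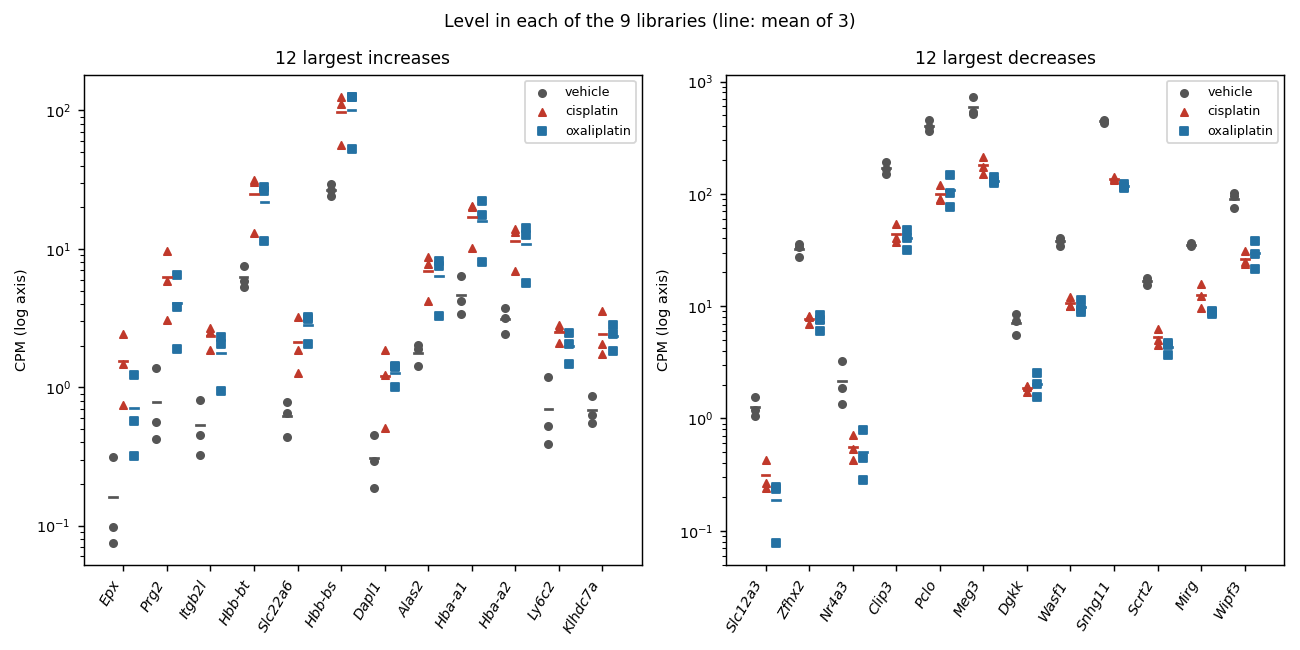
The 12 largest increases and 12 largest decreases among called genes whose drug and vehicle libraries did not overlap, each point being 1 library. Genes are along the horizontal axis and the vertical axis is the level in CPM on a log axis, with vehicle, cisplatin and oxaliplatin libraries as separate markers and a line at the mean of each. Epx lay at up to 0.313 CPM in vehicle and 0.319 or more with the drugs, and Zfhx2 at 27.5 or more in vehicle and 8.26 or less with the drugs.

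Among called genes without overlap of the drug and vehicle libraries and with at least 1 CPM in the higher arm, the largest increases were in Epx and Prg2, encoding eosinophil peroxidase and eosinophil major basic protein, and 5 of the 12 largest were globin or haem synthesis genes. Epx was at 0.0750, 0.313 and 0.0975 CPM in vehicle libraries 1, 2 and 3 and from 0.319 to 2.44 (median 0.988) in the 6 drug libraries, resting on 10 reads in vehicle and 261 with the drugs. Its mean was 1.55 ± 0.849 CPM after cisplatin and 0.707 ± 0.471 after oxaliplatin (SD, n = 3 each), and its log2 change was 2.99 (SE 0.80, 95% interval 1.26 to 4.71, adjusted p = 0.00825). The groups did not overlap, although the oxaliplatin libraries reached down to the highest vehicle library. Prg2 was at 0.562, 1.38 and 0.423 CPM in vehicle and from 1.89 to 9.69 (median 4.85) with the drugs. Prg2 averaged 6.22 ± 3.32 CPM after cisplatin and 4.06 ± 2.30 after oxaliplatin. Prg2 changed by 2.87 (SE 0.59, 95% interval 1.61 to 4.14, adjusted p = 0.00152) on the log2 scale, and every drug library lay above every vehicle library. Of the 15 tested genes of mast cells, basophils and eosinophils 9 rose, the mast cell chymase gene Cma1 (1.11, adjusted p = 1.50e-04) and the IgE receptor gene Fcer1a (1.505, adjusted p = 0.0324) among them, with a list median of 0.68 against 0.01 for all genes. The growth factor receptor gene Kit fell (-0.59, adjusted p = 2.87e-04), and it is also expressed by sensory neurons.

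Neutrophil genes rose as a group: 19 of 22 tested markers of neutrophils and their precursors passed the test, against 20.2% of all genes, with a median of 1.46, 1.70 for cisplatin and 1.20 for oxaliplatin. The summed level of the list was 54.4 to 126 CPM in vehicle, 207 to 328 in cisplatin and 111 to 247 in oxaliplatin, so that the lowest oxaliplatin library lay below the highest vehicle library. S100a9 was at 19.1, 34.3 and 14.01 CPM in vehicle and from 30.3 to 97.8 (median 71.8) with the drugs. S100a9 averaged 80.1 ± 20.2 CPM after cisplatin and 57.9 ± 24.1 after oxaliplatin. S100a9 changed by 1.67 (SE 0.34, 95% interval 0.95 to 2.40, adjusted p = 0.00137) on the log2 scale, and oxaliplatin library 1 fell within the vehicle range, below vehicle library 2. Ltf, which encodes lactoferrin of the neutrophil secondary granules, was at 9.37, 13.6 and 7.35 CPM in vehicle and from 15.1 to 40.0 (median 28.6) with the drugs (1.57, adjusted p = 4.55e-04). Lcn2, encoding the iron-binding lipocalin of the same granules (1.36, adjusted p = 8.26e-04), and Csf3r, the receptor for granulocyte colony-stimulating factor (0.999, adjusted p = 6.70e-04), did not overlap between the groups. Itgb2l, an integrin of neutrophil precursors, rose by 2.07 on the log2 scale (adjusted p = 6.71e-04), and Ly6c2, a surface protein of inflammatory monocytes, by 1.84 (adjusted p = 4.07e-04). The other of the 12 largest increases outside the blood-cell lists were Dapl1 (1.91, adjusted p = 0.00290), Klhdc7a (1.81, adjusted p = 2.46e-04) and the transporter gene Slc22a6.

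Globin and haem synthesis genes of red cells rose together. The beta globin gene Hbb-bs was at 23.96, 29.3 and 26.6 CPM in vehicle and from 52.8 to 125 (median 118) with the drugs. Hbb-bs averaged 97.8 ± 36.3 CPM after cisplatin and 101 ± 41.7 after oxaliplatin. Hbb-bs changed by 1.91 (SE 0.29, 95% interval 1.27 to 2.55, adjusted p = 1.96e-04) on the log2 scale, with every drug library above every vehicle library. Hba-a2 was at 2.44, 3.76 and 3.15 CPM in vehicle and from 5.68 to 14.1 (median 12.9) with the drugs, with means of 11.4 ± 3.81 and 10.8 ± 4.50 in the same order and a log2 change of 1.86 (SE 0.32, 95% interval 1.16 to 2.55, adjusted p = 4.64e-04). The near-identical copies Hbb-bt (1.93) and Hba-a1 (1.88) share reads with these genes, and their separate values are uncertain. Alas2, the erythroid enzyme that starts haem synthesis, was at 1.42, 1.88 and 2.02 CPM in vehicle and from 3.27 to 8.80 (median 7.68) with the drugs (1.90, adjusted p = 5.78e-04). In all of these genes cisplatin library 3 and oxaliplatin library 1 were the lowest of the drug libraries. Of the 17 tested erythroid genes 9 rose, Slc4a1, encoding the red-cell anion exchanger (1.09, adjusted p = 0.0289), among them, and 1 fell, the carbonic anhydrase gene Car2 (-0.12, adjusted p = 0.0228). With unscaled totals the change of Car2 was 0.17 and did not pass the test. The list median was 1.003, 1.34 for cisplatin and 0.39 for oxaliplatin, and its summed level was 156 to 179.5 CPM in vehicle, 222 to 349 in cisplatin and 202 to 334 in oxaliplatin. With vehicle library 2 left out, 0 erythroid genes were lower.

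Markers of tissue that dissection could bring along were measured beside the blood-cell genes. Of 13 bone and cartilage markers Ctsk, encoding the osteoclast protease cathepsin K, rose (0.87, adjusted p = 5.66e-04) and Runx2, encoding an osteoblast factor, fell (-0.33, adjusted p = 0.0363), and the summed level was 52.3 to 58.7 CPM in vehicle, 61.3 to 73.2 in cisplatin and 60.4 to 66.7 in oxaliplatin. Of 17 skeletal muscle markers Casq1, encoding calsequestrin, rose (0.85, adjusted p = 0.0364), and the summed level was 91.6 to 123.2 CPM in vehicle, 88.2 to 134 in cisplatin and 91.1 to 153 in oxaliplatin, which overlap. The part of blood, bone and muscle left on the ganglia in these increases was not tested. Fcer1a was no longer called without vehicle library 1 (1.75) or 2 (1.30) or 3 (1.60). Slc4a1 was no longer called without vehicle library 1 (0.84) or 3 (1.02). Car2 was no longer called without cisplatin library 1 (-0.09) or 2 (-0.09) or 3 (-0.11), or without oxaliplatin library 1 (-0.10) or 3 (-0.10), or without vehicle library 1 (-0.10) or 2 (-0.11) or 3 (-0.13). Runx2 was no longer called without cisplatin library 2 (-0.32), or without oxaliplatin library 1 (-0.27) or 2 (-0.28) or 3 (-0.32), or without vehicle library 1 (-0.31) or 2 (-0.23). Casq1 was no longer called without oxaliplatin library 2 (0.85), or without vehicle library 1 (0.71) or 3 (0.97). With vehicle library 2 left out, 2 muscle markers were higher and 0 bone and cartilage markers lower. The call of Runx2 (-0.04) was lost with unscaled totals. The calls of Casq1 (0.69) and Runx2 (-0.20) were lost after the length and GC correction.

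Macrophage markers rose almost throughout the list, 22 of 25, with a median of 0.68, 0.71 for cisplatin and 0.58 for oxaliplatin. Their summed level was 205 to 278 CPM in vehicle, 323 to 424 in cisplatin and 312 to 365 in oxaliplatin. The share of resident macrophages and of other white blood cells in this rise was not tested. Cx3cr1, the fractalkine receptor, was at 5.32, 8.83 and 5.72 CPM in vehicle and from 10.5 to 13.1 (median 11.5) with the drugs. Cx3cr1 averaged 11.7 ± 1.18 CPM after cisplatin and 11.7 ± 1.25 after oxaliplatin. Cx3cr1 changed by 0.87 (SE 0.14, 95% interval 0.57 to 1.16, adjusted p = 2.33e-04) on the log2 scale. The signalling adaptor gene Tyrobp rose by 0.99 (adjusted p = 1.51e-04) and C1qb, a chain of the first complement component made by macrophages, by 0.73 (adjusted p = 7.61e-06), and neither overlapped between drug and vehicle. Of 9 tested MHC class II genes, which present antigen, 7 rose with a list median of 0.45, including H2-DMa (0.45, adjusted p = 5.00e-04) and H2-Eb1 (0.45, adjusted p = 0.00385), whose lowest drug library lay below vehicle library 2. Of 19 complement genes 10 rose, C3, the central component, by 0.70 (adjusted p = 4.99e-04), while C4a (-1.01, adjusted p = 0.0389) and the inhibitor gene Cd55 (-0.15, adjusted p = 0.0423) fell. With unscaled totals the change of Cd55 was 0.16 and did not pass the test. Of 13 tested B and plasma cell markers 4 were higher (30.8%, against 20.2% of all genes) and 1 lower (7.69%, against 26.1%), with a median of 0.92. Their summed level did not rise, at 184 to 209 CPM in vehicle, 179 to 185 in cisplatin and 171 to 184 in oxaliplatin. Cd79b, a chain of the B cell receptor, was scarce, at 0.337, 0.626 and 0.650 CPM in vehicle and from 0.691 to 1.63 (median 1.38) with the drugs (1.22, adjusted p = 0.0117). Nkg7, a granule gene of killer cells, rose as the only called gene of 9 T and NK cell markers (1.54, adjusted p = 0.0132). C4a was no longer called without cisplatin library 1 (-1.005) or 2 (-1.01), or without oxaliplatin library 1 (-0.94) or 2 (-0.90) or 3 (-0.85), or without vehicle library 1 (-1.17) or 2 (-0.97) or 3 (-0.81). Cd55 was no longer called without cisplatin library 1 (-0.11) or 2 (-0.13) or 3 (-0.11), or without oxaliplatin library 1 (-0.13) or 2 (-0.13) or 3 (-0.12), or without vehicle library 1 (-0.10) or 2 (-0.12). Cd79b was no longer called without vehicle library 1 (0.98). Nkg7 was no longer called without vehicle library 1 (1.32) or 3 (1.18). With vehicle library 2 left out, 0 complement genes were lower, and 2 T and NK cell markers and 7 B and plasma cell markers were higher. The call of C4a (-0.73) was lost with unscaled totals. The calls of C4a (-0.96) and Cd55 (-0.08) were lost after the length and GC correction.

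**Figure D2:**
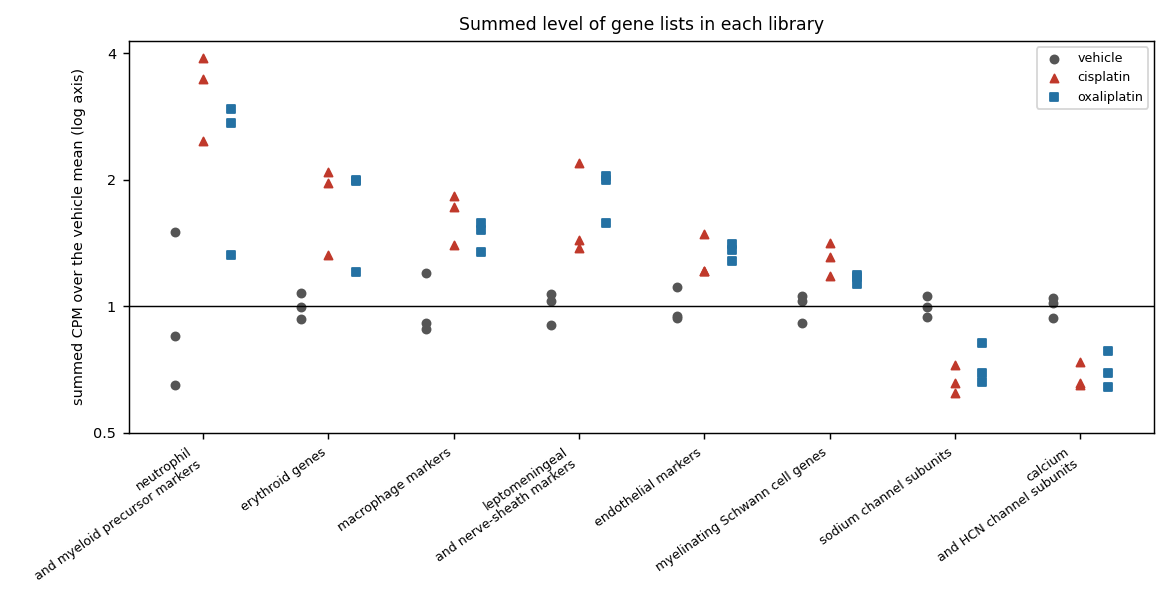
Summed CPM of 8 gene lists of blood, immune, sheath, vessel and Schwann cells and of ion channels in each library, divided by the vehicle mean of that list (no unit, log axis), with 1 point per library. The neutrophil sum was 54.4 to 126 CPM in vehicle, 207 to 328 in cisplatin and 111 to 247 in oxaliplatin, and the macrophage sum was 205 to 278 CPM in vehicle, 323 to 424 in cisplatin and 312 to 365 in oxaliplatin.

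Genes of the coverings and vessels of the ganglion also rose. Ptgds, which encodes the prostaglandin D synthase of the leptomeninges, was at 97.2, 99.9 and 84.9 CPM in vehicle and from 173 to 390.4 (median 291) with the drugs. Ptgds averaged 253 ± 119 CPM after cisplatin and 314 ± 70.6 after oxaliplatin. Ptgds changed by 1.59 (SE 0.24, 95% interval 1.07 to 2.12, adjusted p = 1.78e-04) on the log2 scale, a 3.02-fold rise. Of 21 markers of leptomeninges and nerve sheath 17 rose (median 0.77, 0.71 for cisplatin and 0.79 for oxaliplatin), including the tight junction gene Cldn11 (1.08, adjusted p = 1.87e-04) and the anion transporter gene Slc13a4 (0.93, adjusted p = 2.91e-05), and the summed level was 337 to 400.3 CPM in vehicle, 515 to 819 in cisplatin and 589.8 to 763 in oxaliplatin. Slc22a6, an organic anion transporter, was at 0.787, 0.438 and 0.650 CPM in vehicle and from 1.28 to 3.24 (median 2.60) with the drugs (1.91, adjusted p = 7.58e-04). In the endothelium, 16 of 22 markers rose (median 0.51). Plvap, the protein of the diaphragms of fenestrated vessels, was at 4.27, 4.70 and 5.30 CPM in vehicle and from 8.90 to 11.8 (median 10.3) with the drugs. Plvap averaged 9.94 ± 0.702 CPM after cisplatin and 10.6 ± 1.505 after oxaliplatin (1.10, adjusted p = 7.81e-06). Vwf, encoding von Willebrand factor (0.74, adjusted p = 1.61e-05), and Eng, encoding endoglin (0.64, adjusted p = 1.53e-04), rose by less. Around the vessels 9 of 16 pericyte and smooth muscle markers rose (median 0.29), among them the contractile genes Myl9 (0.82, adjusted p = 1.48e-05) and Acta2 (0.71, adjusted p = 7.56e-04) and the vitronectin gene Vtn (1.01, adjusted p = 6.60e-04).

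In the extracellular matrix 17 of 29 fibroblast and non-collagen matrix genes rose (median 0.28), among them Fn1, encoding fibronectin, at 116, 129 and 108 CPM in vehicle and from 172 to 222 (median 198) with the drugs (0.75, adjusted p = 4.23e-05), and the thrombospondin gene Thbs2 (0.61, adjusted p = 1.48e-04). Of 43 collagens 19 were higher (44.2%, against 20.2% of all genes) and 8 lower (18.6%, against 26.1%). Col6a1, a chain of the microfibrillar collagen VI, rose (0.68, adjusted p = 2.63e-05) and Col24a1, a fibrillar collagen, fell from 16.2, 16.5 and 19.9 CPM in vehicle to from 5.47 to 7.90 (median 6.68) with the drugs (-1.39, adjusted p = 1.50e-06).

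Among the glia, myelin genes rose slightly. Of 25 tested genes of myelinating Schwann cells 16 rose (median 0.27, 0.35 for cisplatin and 0.20 for oxaliplatin), including the plasmolipin gene Pllp (0.54, adjusted p = 2.64e-04), the tetraspanin gene Cd9 (0.38, adjusted p = 5.29e-04) and Cnp, the myelin phosphodiesterase (0.36, adjusted p = 3.71e-04). The tetraspanin gene Tspan2 was the 1 that fell (-0.22, adjusted p = 0.00159). With unscaled totals the change of Tspan2 was 0.07 and did not pass the test. Of 13 genes of non-myelinating and repair Schwann cells 7 fell (median -0.28, which became 0.01 with unscaled totals), the cell adhesion gene L1cam among them, at 680.1, 612 and 659 CPM in vehicle and from 322 to 494 (median 366) with the drugs (-0.76, adjusted p = 1.23e-04), and 2 rose, the growth cone gene Gap43 (0.32, adjusted p = 2.10e-04) and the signalling antagonist gene Sostdc1 (0.17, adjusted p = 0.0463). This list shares Scn7a with the sodium channel subunits, and the part of neurons in its changes was not tested. Satellite glia markers were divided in about the shares of all genes (20.2% higher and 26.1% lower), with 5 higher and 6 lower of 22 (median -0.03). Kcnj10, the inward rectifier through which satellite glia take up potassium, was at 63.9, 54.6 and 61.9 CPM in vehicle and from 28.7 to 43.2 (median 31.9) with the drugs. Kcnj10 averaged 35.5 ± 6.68 CPM after cisplatin and 31.0 ± 2.03 after oxaliplatin. Kcnj10 changed by -0.86 (SE 0.10, 95% interval -1.08 to -0.64, adjusted p = 2.39e-05) on the log2 scale, while the apolipoprotein gene Apoe (0.34, adjusted p = 0.00376), Ptn (0.22, adjusted p = 0.0143), Aqp1 (0.30, adjusted p = 3.16e-04), Lgi4 (0.13, adjusted p = 0.0345) and the acyl-CoA binding gene Dbi (0.38, adjusted p = 2.07e-05) rose. Cadm2, a synaptic adhesion gene also expressed in neurons, fell (-1.03, adjusted p = 1.44e-06). Sostdc1 was no longer called without vehicle library 1 (0.19) or 2 (0.15). Lgi4 was no longer called without vehicle library 1 (0.14) or 3 (0.13). With unscaled totals 3 satellite glia markers were lower and 10 higher, and 2 of the non-myelinating Schwann cell genes were lower and 3 higher. Without vehicle library 2, 1 of the latter was higher. The calls of Lgi4 (0.10) and Sostdc1 (0.06) were lost after the length and GC correction.

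The largest decreases by the same rule included neuronal and non-coding transcripts. Zfhx2, on chromosome 14, 55060262 to 55092324 (GRCm38), encodes a zinc finger homeobox factor of nociceptors whose mutation is known to blunt pain. It was at 33.4, 27.5 and 35.6 CPM in vehicle and from 5.95 to 8.26 (median 7.70) with the drugs. Zfhx2 averaged 7.71 ± 0.632 CPM after cisplatin and 7.22 ± 1.17 after oxaliplatin. Zfhx2 changed by -2.12 (SE 0.10, 95% interval -2.33 to -1.90, adjusted p = 8.18e-08) on the log2 scale, so that the vehicle mean was 4.34 times the drug mean, with the groups far apart. Pclo, on chromosome 5, 14514918 to 14863459, encodes piccolo, a scaffold of the presynaptic active zone. It was at 457, 363 and 391.7 CPM in vehicle and from 75.6 to 146 (median 96.0) with the drugs (log2 change -1.96, SE 0.16, 95% interval -2.30 to -1.63, adjusted p = 1.50e-06), and its highest level with the drugs was far below the lowest vehicle library. Clip3, a linker of membranes to microtubules, was at 191, 151 and 165 CPM in vehicle and from 31.9 to 54.0 (median 40.5) with the drugs (-2.01, adjusted p = 4.32e-07). Wasf1, which drives actin branching (-1.87, adjusted p = 8.18e-08), and Wipf3, an actin regulator of the same pathway (-1.69, adjusted p = 2.27e-06), fell too. Scrt2, a neural zinc finger repressor, fell by 1.80 on the log2 scale (adjusted p = 6.16e-07), and Dgkk, a diacylglycerol kinase, by 1.89 (adjusted p = 1.67e-06). The largest decrease by the naming rule was in Slc12a3, the thiazide-sensitive cotransporter of sodium and chloride, which was low in all libraries, at 1.05, 1.19 and 1.56 CPM in vehicle and from 0.0777 to 0.430 (median 0.243) with the drugs (-2.36, adjusted p = 5.24e-05). Nr4a3, an activity-induced nuclear receptor, went from 3.22, 1.88 and 1.33 CPM in vehicle to from 0.285 to 0.782 (median 0.486) (-2.01, adjusted p = 1.89e-04).

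Long non-coding RNAs kept in the nucleus fell as a list, 9 of 14 with a median of -0.83 (-0.75 for cisplatin and -0.91 for oxaliplatin), against 26.1% of all genes, and the other members did not pass the test. Meg3, on chromosome 12, 109541001 to 109571726, is the maternally expressed RNA of the imprinted Dlk1-Dio3 domain. It was at 533, 513 and 730.3 CPM in vehicle and from 124 to 213 (median 146) with the drugs. Meg3 averaged 179 ± 31.2 CPM after cisplatin and 131 ± 8.51 after oxaliplatin. Meg3 changed by -1.93 (SE 0.15, 95% interval -2.26 to -1.61, adjusted p = 1.39e-06) on the log2 scale. Its neighbours in the domain fell as well: Mirg, the host of a microRNA cluster, from 34.3, 34.8 and 36.2 CPM in vehicle to from 8.53 to 15.8 (median 9.34) (-1.72, adjusted p = 3.09e-06), and Rian, the host of small nucleolar RNAs, from 394, 381 and 392.3 to from 224 to 248 (median 239.6) (-0.71, adjusted p = 6.31e-07). Correction of every library for exon length and GC content, described below, took Rian to -0.05 and ended its call. Snhg11, a neuronal host gene of a small nucleolar RNA, was at 446, 425 and 452 CPM in vehicle and from 112 to 139.9 (median 127) with the drugs (-1.80, adjusted p = 1.09e-08). Malat1, the most abundant of these RNAs, was at 7383, 6916 and 8205 CPM in vehicle and from 2971 to 3583 (median 3172) with the drugs (-1.21, adjusted p = 1.11e-06). All of these genes kept the drug and vehicle libraries apart, and the reads outside genes, 26.2% or more in every vehicle library and 19.1% or less in every drug library, moved with them. The part of those reads in these decreases was not tested. Leaving out vehicle library 2 took 1 RNA of the list to the higher side.

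Sodium, calcium and HCN channel genes of the sensory neuron were mostly lower. Of 13 tested sodium channel subunits 10 fell (median -0.51, -0.57 for cisplatin and -0.47 for oxaliplatin) and 1, the beta subunit gene Scn2b, rose (0.35, adjusted p = 9.15e-04). Scn10a, the Nav1.8 channel of nociceptors that resists tetrodotoxin, was at 1337, 1217 and 1318 CPM in vehicle and from 726 to 1015 (median 829) with the drugs. Scn10a averaged 804 ± 81.1 CPM after cisplatin and 891 ± 109 after oxaliplatin. Scn10a changed by -0.61 (SE 0.09, 95% interval -0.80 to -0.41, adjusted p = 1.62e-04) on the log2 scale, without overlap. Scn9a, the Nav1.7 channel whose loss abolishes pain in humans, was at 1148, 1005 and 1014 CPM in vehicle and from 634 to 799 (median 656) with the drugs, with means of 668 ± 42.1 and 698 ± 88.8 in the same order (log2 change -0.63, SE 0.08, 95% interval -0.81 to -0.45, adjusted p = 5.44e-05). Scn8a, the channel of nodes of Ranvier (-0.82, adjusted p = 1.82e-04), Scn7a, a sodium sensor (-0.68, adjusted p = 6.07e-05), and Scn1a, a channel of large neurons (-0.51, adjusted p = 4.66e-05), fell by similar amounts. With unscaled totals Scn10a went to -0.32 and Scn1a to -0.22, and neither passed the test. With unscaled totals 3 of the 13 sodium channel subunits were lower and 2 higher.

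Of 26 calcium and HCN channel subunits 22 fell (median -0.54), and 1, the T-type channel gene Cacna1g, rose (0.498, adjusted p = 0.0257). Cacna1b, the N-type channel that triggers transmitter release, was at 249, 212 and 255 CPM in vehicle and from 101 to 156 (median 115) with the drugs (-0.99, adjusted p = 2.07e-05). Cacna1a, the P/Q-type channel (-1.22, adjusted p = 1.39e-06), the beta subunit gene Cacnb4 (-0.55, adjusted p = 1.60e-05) and Cacna2d1, which encodes the subunit that binds gabapentin (-0.60, adjusted p = 4.70e-05), fell too. Of 81 potassium channel subunits 37 fell and 7 rose (median -0.16, which became 0.13 with unscaled totals). Kcnd1, an A-type channel, fell (-0.83, adjusted p = 2.11e-06). Of 31 sensory transduction channels 8 were lower (25.8%, near the 26.1% of all genes) and 2 higher (6.45%, against 20.2%). Their median was -0.02, and 0.28 with unscaled totals, against 0.01 and 0.30 for all genes. Trpm8, the receptor for cold and menthol, was at 61.2, 64.3 and 54.6 CPM in vehicle and from 29.2 to 39.5 (median 30.3) with the drugs. Trpm8 averaged 31.5 ± 3.66 CPM after cisplatin and 33.4 ± 5.31 after oxaliplatin. Trpm8 changed by -0.88 (SE 0.09, 95% interval -1.08 to -0.68, adjusted p = 9.15e-06) on the log2 scale. The touch channel gene Piezo2 (-0.72, adjusted p = 1.70e-04) and the acid-sensing channel gene Asic3 (-0.54, adjusted p = 1.15e-04) fell, and Piezo1 (0.29, adjusted p = 0.00794) and Trpc6 (0.16, adjusted p = 0.0467) rose. Trpa1, the irritant receptor, was at 93.8, 84.4 and 83.97 CPM in vehicle and from 86.3 to 101 (median 91.5) with the drugs (0.08, adjusted p = 0.281), and Trpv1, the receptor for heat and capsaicin, at 139, 132 and 134 and from 121 to 146 (median 124) (-0.06, adjusted p = 0.443). Neither passed the test, their groups overlapped, and the sign of Trpv1 turned to 0.24 with unscaled totals. Cacna1g was no longer called without vehicle library 2 (0.49) or 3 (0.35). Trpc6 was no longer called without vehicle library 1 (0.19) or 3 (0.09). With unscaled totals 10 of the calcium and HCN channel subunits were lower and 3 higher, 15 of the potassium channel subunits lower and 22 higher, and 2 of the transduction channels lower and 13 higher. In the same setting 1182 of all 17348 genes were lower and 7701 higher. Leaving out vehicle library 2 left 0 calcium and HCN channel subunits higher. The calls of Asic3 (-0.25) and Cacnb4 (-0.26) were lost with unscaled totals.

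Genes of the synapse and of the axon's membrane skeleton were mostly lower too. Of 35 synaptic vesicle and release genes 25 fell (median -0.29, which became 0.01 with unscaled totals). Syn1, encoding synapsin of the vesicle surface, was at 207, 183 and 186 CPM in vehicle and from 52.99 to 71.4 (median 57.4) with the drugs. Syn1 averaged 58.1 ± 8.80 CPM after cisplatin and 62.1 ± 8.81 after oxaliplatin. Syn1 changed by -1.68 (SE 0.09, 95% interval -1.87 to -1.48, adjusted p = 1.78e-07) on the log2 scale. Vamp2, the vesicle SNARE, fell (-1.17, adjusted p = 6.36e-07), and 4 rose, among them Stx1a (0.20, adjusted p = 0.00376), Napa (0.15, adjusted p = 0.0187) and Sncg (0.21, adjusted p = 0.0321). Of 24 ankyrins, spectrins and node genes 22 fell (median -0.64, -0.70 for cisplatin and -0.60 for oxaliplatin), and the other members did not pass the test. Ank3, encoding ankyrin G that anchors channels at nodes and initial segments, was at 791, 592 and 788 CPM in vehicle and from 279 to 403 (median 303) with the drugs. Ank3 averaged 296 ± 22.6 CPM after cisplatin and 336 ± 62.8 after oxaliplatin, a log2 change of -1.20 (SE 0.12, 95% interval -1.45 to -0.94, adjusted p = 5.91e-06). Even the highest drug library was well below the lowest vehicle library. Of 23 glutamate receptor subunits 15 fell (median -0.36), including Grik2 (-0.73, adjusted p = 1.79e-06) and Gria3 (-0.77, adjusted p = 6.18e-06), and of 21 GABA and glycine receptor subunits 11 fell (median -0.39), including Gabra2 (-0.55, adjusted p = 3.36e-05), the other members of both lists not passing the test. The cell-surface recognition genes of the protocadherin and teneurin families fell in 35 of 47 (median -0.43), including Pcdha2 (-0.68, adjusted p = 3.35e-06) and Pcdhb19 (-0.83, adjusted p = 7.86e-06), and Fat2 (1.29, adjusted p = 0.00771) and the endothelial Pcdh12 (0.59, adjusted p = 0.0145) rose. Pcdha2 belongs to a cluster whose members share their last exons, and its separate value is uncertain. Sncg was no longer called without vehicle library 1 (0.20) or 3 (0.17). Pcdh12 was no longer called without vehicle library 1 (0.47). With unscaled totals 9 of the vesicle genes, 15 of the ankyrin list, 5 of the glutamate receptors, 0 of the GABA and glycine receptors (median -0.09, 1 higher) and 11 of the protocadherin list were lower. The call of Gabra2 (-0.26) was lost with unscaled totals. The calls of Napa (0.07), Sncg (0.02) and Stx1a (0.09) were lost after the length and GC correction.

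Of 67 axon guidance genes 36 were lower (53.7%, against 26.1% of all genes) and 14 higher (20.9%, against 20.2%). The list median was -0.20, which became 0.09 with unscaled totals. The ephrin gene Efna5 (-1.11, adjusted p = 1.60e-06) and the semaphorin gene Sema4d (-0.72, adjusted p = 2.56e-06) were among those that fell. Of 34 neurofilament, tubulin and microtubule protein genes 13 were lower (38.2%, against 26.1% of all genes) and 5 higher (14.7%, against 20.2%). Without vehicle library 2, 15 were lower and 8 higher. Their median was -0.12, which became 0.18 with unscaled totals. The neuronal tubulin gene Tubb4a was at 326, 279 and 272 CPM in vehicle and from 93.4 to 131 (median 104) with the drugs (-1.43, adjusted p = 6.38e-07), and the dendrite protein gene Map2 fell (-0.83, adjusted p = 2.10e-05). Kif2a, a microtubule-depolymerising kinesin of another list, fell as well (-1.12, adjusted p = 1.65e-06). That list, of 60 kinesin, dynein and dynactin genes, had 16 lower (26.7%) and 12 higher (20%), near the 26.1% and 20.2% of all genes. Its median was -0.01. With unscaled totals 13 of the guidance genes were lower and 21 higher, and 6 of the neurofilament and tubulin list lower and 13 higher. The kinesin list then had 7 lower and 26 higher. Of all 17348 genes, 1182 were lower and 7701 higher in that setting.

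Markers of neuron types did not move as one. Of 24 sensory neuron identity genes 14 fell (median -0.22, which became 0.07 with unscaled totals) and 1, the transcription factor gene Tlx3, rose (0.19, adjusted p = 0.0162). Runx1, a factor of nociceptor types, was at 114, 101 and 109.9 CPM in vehicle and from 50.1 to 65.8 (median 58.8) with the drugs (-0.91, adjusted p = 1.96e-06), and Ntrk3, the neurotrophin-3 receptor of proprioceptors, at 157, 128 and 142 and from 59.4 to 81.3 (median 65.3) (-1.09, adjusted p = 2.24e-06). The drug and vehicle libraries did not overlap in either. Of 24 markers of large-diameter neurons 14 fell (median -0.32), including the proprioceptor factor gene Etv1 (-0.89, adjusted p = 3.11e-06) and the nuclear receptor gene Esrrg (-1.12, adjusted p = 4.98e-06), and the others did not pass the test. Of 23 markers of non-peptidergic and itch neurons 11 fell (median -0.18, which became 0.11 with unscaled totals), with Mrgprb5, an itch receptor of a family of close copies (-1.23, adjusted p = 2.02e-06), and the neurturin receptor gene Gfra2 (-0.61, adjusted p = 7.25e-06), while the itch peptide gene Nppb (0.41, adjusted p = 0.00936) and Otoa (0.32, adjusted p = 0.00597) rose. Of 22 neuropeptide genes 6 rose, against 20.2% of all genes, and 1, Vgf, a granule peptide precursor, fell (-0.38, adjusted p = 0.0107), with a median of 0.11. Calca, encoding the vasodilating peptide CGRP of nociceptors, was at 1248, 1294 and 1222 CPM in vehicle and from 1543 to 1759 (median 1606) with the drugs. Calca averaged 1635 ± 73.9 CPM after cisplatin and 1636 ± 111 after oxaliplatin, a log2 change of 0.38 (SE 0.07, 95% interval 0.23 to 0.53, adjusted p = 6.99e-04). Nmb, encoding neuromedin B (0.33, adjusted p = 3.55e-04), and the granule protein gene Resp18 (0.25, adjusted p = 2.62e-04) rose by less. Tac1, the substance P precursor, was at 211, 215 and 203 CPM in vehicle and from 217 to 279 (median 229.7) with the drugs (0.16, adjusted p = 0.0720), which missed the threshold although the libraries did not overlap. Tlx3 was no longer called without vehicle library 1 (0.14) or 3 (0.19). Nppb was no longer called without vehicle library 1 (0.34) or 3 (0.34). Vgf was no longer called without vehicle library 3 (-0.30). With unscaled totals 5 of the identity genes, 7 of the large-diameter markers and 3 of the non-peptidergic markers were lower, and 18 of the neuropeptide genes were higher. Without vehicle library 2, 3 identity genes were higher. The call of Vgf (-0.09) was lost with unscaled totals. The calls of Nmb (0.11), Nppb (0.24), Resp18 (0.05) and Tlx3 (0.08) were lost after the length and GC correction.

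**Figure D3:**
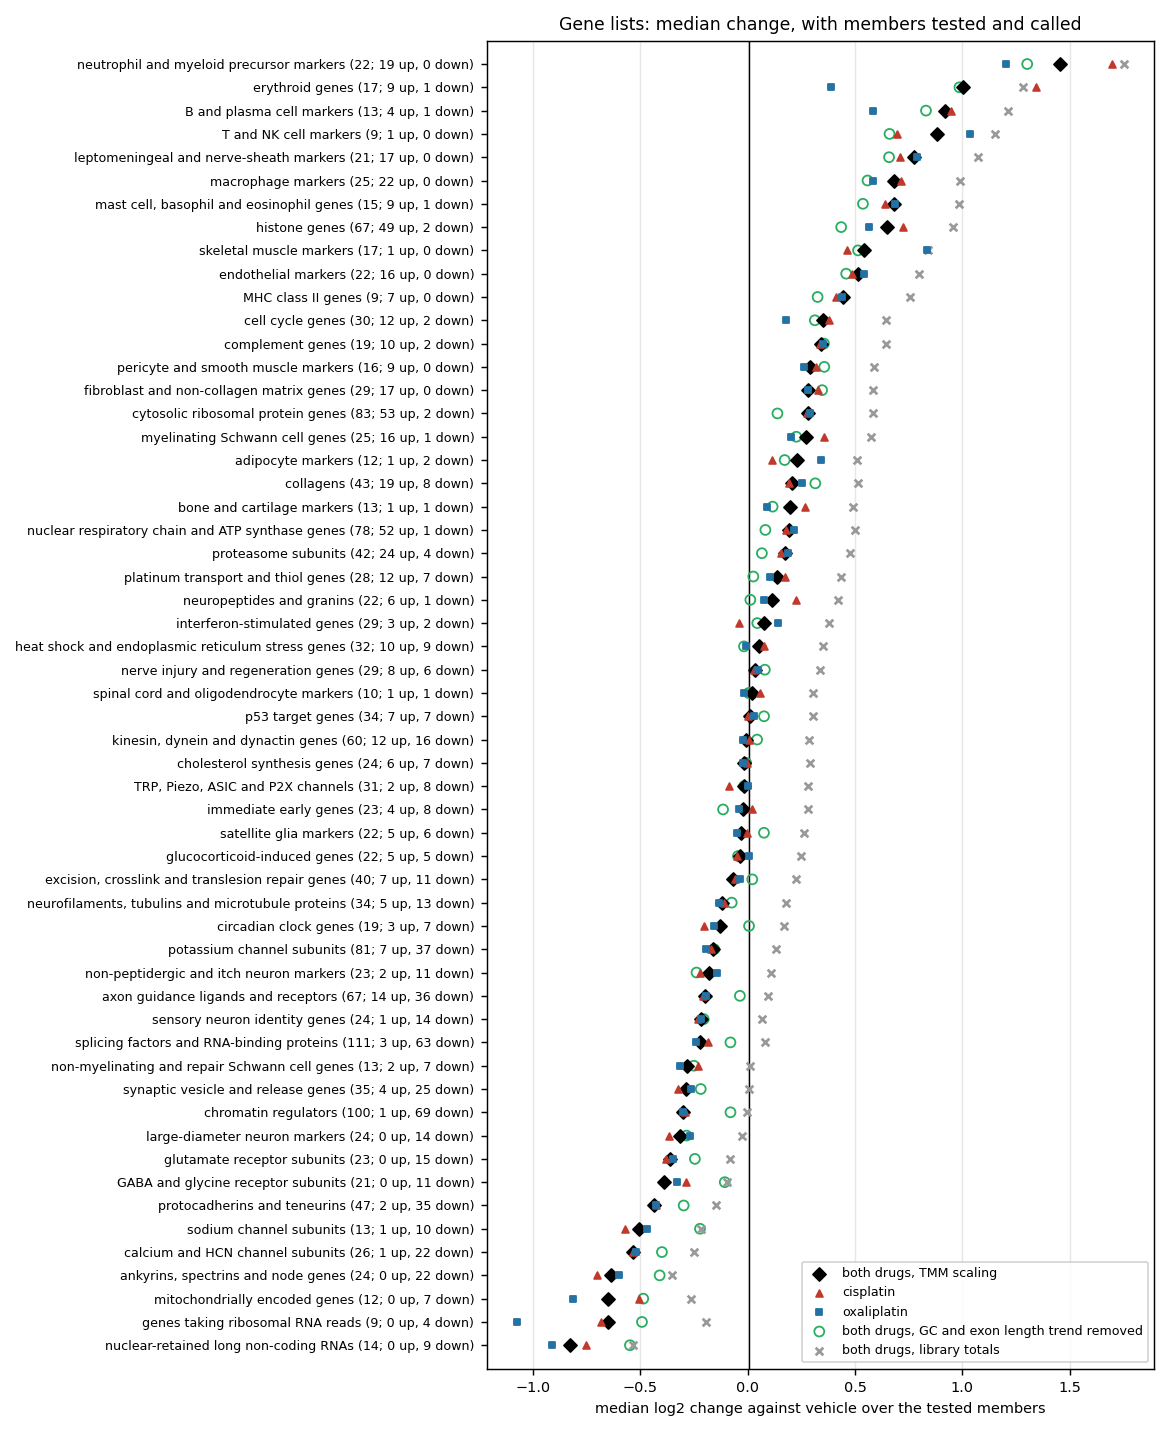
Median log2 change over the tested members of each of the 56 gene lists, with cisplatin, oxaliplatin and both drugs together as separate points against vehicle (horizontal axis), both drugs also with unscaled totals (crosses) and after removal of the GC and exon length trend (open circles), and a line at the median of all genes. The neutrophil list lay at 1.46, the nuclear long non-coding RNAs at -0.83 and all genes at 0.01.

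Genes that regulate chromatin and splicing were mostly lower. Of 100 chromatin regulators 69 fell and 1, the methyltransferase gene Setd3, rose (0.10, adjusted p = 0.0448), with a median of -0.30 (-0.29 for cisplatin and -0.30 for oxaliplatin). The acetyltransferase gene Ep300 (-1.05, adjusted p = 6.75e-07) and the methyltransferase-family gene Kmt2e (-0.99, adjusted p = 8.75e-07) were among those that fell. Of 111 splicing factors and RNA-binding proteins 63 fell (median -0.22, which became 0.08 with unscaled totals), led by the splicing matrix genes Srrm2, at 443, 373 and 405 CPM in vehicle and from 131 to 189.6 (median 154) with the drugs (-1.35, adjusted p = 8.75e-07), and Srrm1 (-1.17, adjusted p = 7.52e-07). The 3 that rose were Prpf31 (0.14, adjusted p = 0.0432), Rbm15b (0.18, adjusted p = 0.0122) and Sf3b5 (0.25, adjusted p = 0.00387). Setd3 was no longer called without vehicle library 1 (0.12) or 2 (0.12) or 3 (0.10). Prpf31 was no longer called without vehicle library 1 (0.15) or 2 (0.15) or 3 (0.16). With unscaled totals 22 chromatin regulators were lower and 13 higher, with a median of -0.00546, and 19 splicing genes were lower and 26 higher. With vehicle library 2 left out, 6 splicing genes were higher and 58 lower.

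Genes of ribosomes, the respiratory chain and histones were mostly higher. Of 83 cytosolic ribosomal protein genes 53 rose (median 0.28, 0.28 for cisplatin and 0.29 for oxaliplatin), including Rps4x, at 49.9, 52.1 and 49.2 CPM in vehicle and from 64.9 to 71.5 (median 68.9) with the drugs (0.45, adjusted p = 7.49e-06), and Rps28 (0.4999, adjusted p = 1.61e-05), and 2 fell, Rpl24 (-0.41, adjusted p = 4.27e-05) and Rpl10a (-0.25, adjusted p = 0.0257), the latter at 0.05 with unscaled totals. Of 78 nuclear genes of the respiratory chain and ATP synthase 52 rose (median 0.19), including the complex IV genes Cox6a1 (0.40, adjusted p = 1.80e-05) and Cox5b (0.35, adjusted p = 1.11e-05) and the complex I gene Ndufv3 (0.37, adjusted p = 9.31e-06), and 1, the cytochrome c gene Cycs, fell (-0.36, adjusted p = 0.00143). Of 67 histone genes 49 rose (median 0.65), including the linker histone genes Hist1h1e (0.56, adjusted p = 2.16e-05) and H1f0 (0.42, adjusted p = 2.41e-05), and 2 fell, H1fx (-0.64, adjusted p = 0.00406) and H2afy3 (-0.89, adjusted p = 0.0235). Ribosomal protein genes have many processed copies in the genome and replication histones are near-identical, so that their separate values are uncertain. Rpl10a was no longer called without cisplatin library 2 (-0.23) or 3 (-0.20), or without oxaliplatin library 1 (-0.20) or 2 (-0.22), or without vehicle library 1 (-0.20) or 2 (-0.21). H2afy3 was no longer called without vehicle library 1 (-0.51) or 3 (-0.94). Leaving out vehicle library 2 left 1 ribosomal protein gene lower. The calls of Cycs (-0.05), H1fx (-0.32), H2afy3 (-0.62) and Rpl24 (-0.11) were lost with unscaled totals.

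These families differ in transcript length, and length moved with the change over all genes. Genes were divided into 5 equal groups by merged exon length. In the shortest group (up to 1996 bases) 32.2% were higher and 6.51% lower, and in the longest (7163 bases or more) 6.24% were higher and 58.4% lower. Across the 17134 tested genes with an exon length, which are not independent replicates, Spearman's rho between length and change was -0.42, and it was -0.45 without vehicle library 2. The cisplatin and oxaliplatin medians were 0.18 and 0.20 in the shortest and -0.25 and -0.25 in the longest. After correction of every library for its trend with these lengths and with GC content, rho was -0.04. Of all 17089 genes in that setting 3187 were higher and 3558 lower, with a median of 0.01, and the list counts below are to be read against these. The chromatin regulators' median then went from -0.30 to -0.08 with 38 lower and 8 higher, the splicing factors' from -0.22 to -0.08, the ribosomal protein genes' from 0.28 to 0.14 with 30 higher, and the respiratory genes' from 0.19 to 0.08 with 26 higher. The ankyrin and node list's median went from -0.64 to -0.41 with 19 lower, the sodium channels' from -0.51 to -0.22 with 8 lower, the GABA and glycine receptors' from -0.39 to -0.11 with 6 lower and the axon guidance genes' from -0.20 to -0.04 with 25 lower. The calcium and HCN channels went from -0.54 to -0.40 with 20 lower, the glutamate receptors from -0.36 to -0.25 with 12 lower, and the neuropeptides from 0.11 to 0.01 with 3 higher and 2 lower. In the platinum transport and thiol list 6 were higher and 5 lower with a median of 0.03, and in the heat shock and stress list 3 and 11. The neutrophil list was at 1.30 with 18 higher and the histone list at 0.44 with 38 higher. Over all genes 61.0% of the higher and 68.6% of the lower calls were made again on the same side after that removal, and 134 genes called lower became higher. Whether the length relation arose in the tissue or in the libraries was not tested.

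**Figure D4:**
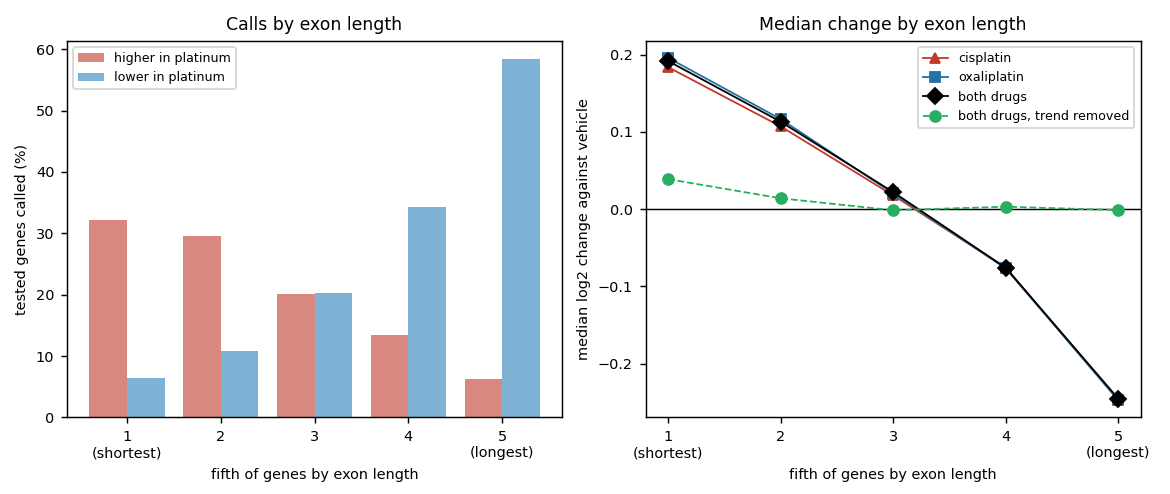
Share of tested genes called higher or lower (left, percent) and median log2 change (right) in 5 equal groups of genes ordered by merged exon length, shortest to longest. The share called lower went from 6.51% to 58.4%, and the lines for cisplatin, oxaliplatin and both drugs ran together, apart from the line after removal of the trend.

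Genes named in the response of cells to platinum did not move together. Of 34 targets of the tumour suppressor p53 7 rose and 7 fell (20.6% each, against 20.2% and 26.1% of all genes, median 0.01), which became 9 and 4 without vehicle library 2 and 17 and 1 with unscaled totals. Cdkn1a, the cell cycle inhibitor p21, was at 24.4, 30.5 and 24.5 CPM in vehicle and from 18.2 to 22.9 (median 20.9) with the drugs. Cdkn1a averaged 22.7 ± 0.171 CPM after cisplatin and 18.7 ± 0.451 after oxaliplatin, a log2 change of -0.35 (SE 0.10, 95% interval -0.55 to -0.14, adjusted p = 0.0100). It fell, but the call was lost without vehicle library 2 (-0.22) and with unscaled totals (-0.03). Mdm2, the ubiquitin ligase that limits p53, fell (-0.22, adjusted p = 0.00213) but was at 0.07 with unscaled totals, Zmat3 fell (-1.01, adjusted p = 5.96e-06), and Plk2, a stress-induced kinase, rose (0.33, adjusted p = 8.87e-05). Of 40 genes of excision, crosslink and translesion repair 7 rose and 11 fell (17.5% and 27.5%, near the shares of all genes). Their median was -0.07, which became 0.23 with unscaled totals and 0.02 after removal of the length trend. Ercc1, which cuts the strand beside a platinum adduct, rose (0.36, adjusted p = 1.69e-04), while Rev3l, the translesion polymerase (-0.67, adjusted p = 5.22e-06), Prkdc, the kinase of end joining (-0.80, adjusted p = 1.17e-05), and the damage kinase gene Atm (-0.58, adjusted p = 1.01e-04) fell. Of 30 cell cycle genes 12 rose (median 0.35), including the topoisomerase gene Top2a (0.79, adjusted p = 7.85e-04), and 2 fell, Kif23 (-0.68, adjusted p = 0.00367) and Rrm1 (-0.17, adjusted p = 0.0148), the latter at 0.13 with unscaled totals and 0.11 after removal of the length trend. Rrm1 was no longer called without cisplatin library 2 (-0.14), or without oxaliplatin library 2 (-0.14), or without vehicle library 1 (-0.13) or 2 (-0.13). With unscaled totals 15 repair genes were higher and 3 lower, against 7701 and 1182 of all 17348 genes. Leaving out vehicle library 2 left 1 cell cycle gene lower.

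Of 28 genes of platinum transport and thiol metabolism 12 rose (42.9%, against 20.2% of all genes) and 7 fell (25%, near the 26.1% of all genes), with a median of 0.14. Slc31a1, the copper transporter that takes up cisplatin, was at 41.9, 38.3 and 40.1 CPM in vehicle and from 37.4 to 40.5 (median 39.0) with the drugs (-0.05, adjusted p = 0.442), did not pass the test and turned to 0.25 with unscaled totals. Slc22a2, the organic cation transporter that takes up oxaliplatin, was scarce, at 0.487, 0.689 and 0.650 CPM in vehicle and from 0.700 to 1.45 (median 1.02) with the drugs. Slc22a2 averaged 0.942 ± 0.169 CPM after cisplatin and 1.08 ± 0.375 after oxaliplatin, a log2 change of 0.75 (SE 0.27, 95% interval 0.16 to 1.34, adjusted p = 0.0373). The copper chaperone gene Atox1 (0.42, adjusted p = 2.53e-04) and the glutathione transferase gene Gsta4 (0.54, adjusted p = 2.63e-04) rose, and Gclm, a subunit of the enzyme that starts glutathione synthesis, fell (-0.41, adjusted p = 2.29e-05), although with unscaled totals its change was -0.11 and did not pass. Heat shock and endoplasmic reticulum stress genes split into 10 higher (31.25%) and 9 lower (28.1%, near the share of all genes) of 32. Their median was 0.05, which became -0.02 after removal of the length trend. The chaperone genes Hsph1, at 320.2, 309 and 290.5 CPM in vehicle and from 156 to 196 (median 167) with the drugs (-0.84, adjusted p = 1.50e-06), Bag3 (-0.92, adjusted p = 1.33e-06) and Dnajb9 (-0.75, adjusted p = 9.58e-06) fell. Of 29 nerve injury and regeneration genes 8 rose and 6 fell (27.6% and 20.7%, against 20.2% and 26.1% of all genes, median 0.03). The marker of injured neurons Atf3 was at 6.26, 5.32 and 5.43 CPM in vehicle and from 5.39 to 10.0 (median 6.61) with the drugs (0.31, adjusted p = 0.159), without passing the test. Sprr1a, which injured neurons induce (1.42, adjusted p = 0.0350), rose, and the axon growth regulator gene Klf7 (-0.74, adjusted p = 3.12e-05) and Jun (-0.32, adjusted p = 1.07e-04) fell, Jun to -0.02 with unscaled totals, which did not pass. Slc22a2 was no longer called without cisplatin library 2 (0.75), or without oxaliplatin library 2 (0.75), or without vehicle library 1 (0.63) or 3 (0.83). Sprr1a was no longer called without vehicle library 1 (0.997) or 2 (1.499). With unscaled totals 18 of the transport and thiol genes, 16 of the heat shock and stress genes and 16 of the injury genes were higher and 0, 4 and 3 lower. In that setting 7701 of all 17348 genes were higher and 1182 lower. The calls of Slc22a2 (0.61) and Sprr1a (1.21) were lost after the length and GC correction.

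Of the 12 genes of platinum neuropathy taken by the naming rule, Scn10a, Scn9a, Trpm8 and Cdkn1a fell, Calca and Slc22a2 rose, and Trpa1, Trpv1, Tac1, Atf3 and Slc31a1 did not pass the test. Gdf15, a stress cytokine, did not pass the filter on low counts. None of these genes was called different between the drugs (edgeR): the cisplatin minus oxaliplatin difference was -0.15 (95% interval -0.37 to 0.08, adjusted p = 0.830) for Scn10a, -0.08 (95% interval -0.32 to 0.16, adjusted p = 0.920) for Trpm8 and 0.00 (95% interval -0.18 to 0.18, adjusted p = 0.9999) for Calca. The means of Cdkn1a given above stood farther apart, higher after cisplatin than after oxaliplatin, without passing the adjusted threshold.

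The drugs were compared directly as 1 pair of compounds at the same cumulative mass, with p-values adjusted over the 17348 genes. Only 2 genes passed (0.0115% of those tested), and 1111 genes (6.40%) had an unadjusted p under 0.05. Fam150b, which encodes a ligand of the ALK receptor family, was at 8.43, 8.58 and 8.81 CPM in vehicle. Fam150b averaged 13.7 ± 0.725 CPM after cisplatin and 9.13 ± 0.380 after oxaliplatin. Its difference was 0.58 (95% interval 0.43 to 0.73, adjusted p = 0.0468), and it was not called against vehicle (0.40, adjusted p = 0.0628). Prss34, a basophil protease, was at 0.112, 0.376 and 0.163 CPM in vehicle, resting on 14 reads. Prss34 averaged 1.02 ± 0.218 CPM after cisplatin and 0.172 ± 0.0359 after oxaliplatin. Its difference was 2.54 (95% interval 1.82 to 3.26, adjusted p = 0.0495), and it was not called against vehicle either (1.59, adjusted p = 0.145). Both calls were lost when any 1 library other than vehicle library 2 was left out. Without oxaliplatin library 1, 2 other genes passed, and without each of the remaining libraries 0 genes passed. DESeq2 called 15 genes and limma-voom 1.

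Of the 8038 genes called against vehicle, edgeR called 0 different between the drugs, with 525 at an unadjusted p under 0.05, DESeq2 called 4 and limma-voom 0. The fit with 1 drug term counts a difference between the drugs as spread, which goes against calling genes on which they differ. The 0 was therefore partly set by the way the 8038 genes were chosen. In 7778 of them (96.8%) the 95% interval of the difference lay within 2-fold in either direction, and the interval over all genes had a median width of 0.19 to either side. The called genes nearest to a difference were by rule Hnrnph1, Npas2, Naa50, Hnrnpa1, Ogfrl1 and Tef. Against vehicle, Npas2 was no longer called without vehicle library 2 (-0.47) or 3 (-0.49), nor Hnrnpa1 without vehicle library 2 (-0.46). Hnrnph1, a splicing regulator, had means of 104 ± 1.84 CPM after cisplatin and 87.0 ± 1.22 after oxaliplatin against 123.1 ± 4.02 in vehicle (SD, n = 3 each), a difference of 0.25 (95% interval 0.15 to 0.35, adjusted p = 0.241). Npas2, a clock factor, had 3.50 ± 0.0389 and 2.40 ± 0.311 against 4.23 ± 0.323, a difference of 0.55 (95% interval 0.28 to 0.81, adjusted p = 0.5004). The difference of Tef, a clock-controlled factor, was -0.26 (95% interval -0.39 to -0.13, adjusted p = 0.538), of Naa50, an acetyltransferase subunit, 0.34 (95% interval 0.17 to 0.505, adjusted p = 0.5004), of Hnrnpa1 0.61 (95% interval 0.31 to 0.91, adjusted p = 0.538) and of Ogfrl1 0.21 (95% interval 0.11 to 0.32, adjusted p = 0.538). For the leading genes against vehicle the differences were 1.11 (95% interval 0.09 to 2.12, adjusted p = 0.767) for Epx, -0.05 (95% interval -0.71 to 0.61, adjusted p = 0.990) for Hbb-bs, 0.47 (95% interval -0.23 to 1.16, adjusted p = 0.829) for S100a9, 0.09 (95% interval -0.19 to 0.38, adjusted p = 0.927) for Zfhx2 and 0.45 (95% interval 0.14 to 0.75, adjusted p = 0.676) for Meg3. The interval of Epx reaches beyond 2-fold, so that a drug difference of that size was not excluded for it at this depth and number of pools. The calls of Hnrnpa1 (-0.31), Hnrnph1 (-0.07), Npas2 (-0.23) and Ogfrl1 (-0.19) against vehicle were lost with unscaled totals. The call of Hnrnph1 (-0.12) was lost after the length and GC correction.

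**Figure D5:**
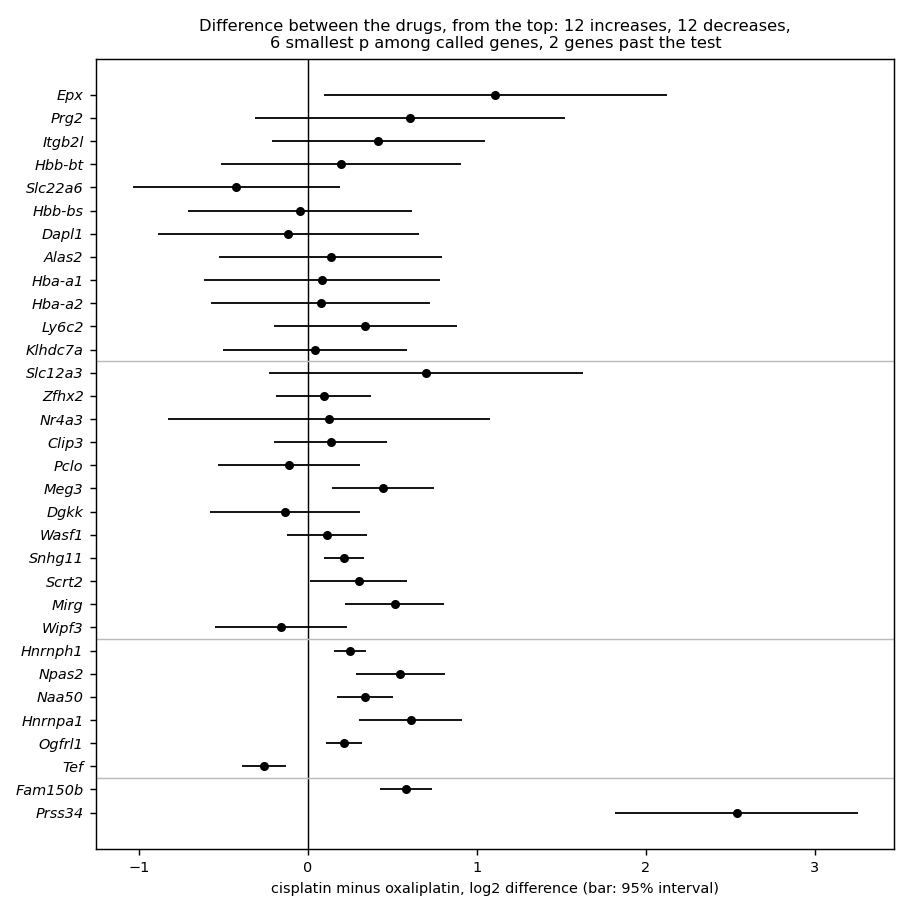
Cisplatin minus oxaliplatin log2 difference with its 95% interval (horizontal axis) for the 12 largest increases, the 12 largest decreases, the 6 called genes nearest to a difference and, at the bottom, Fam150b and Prss34. The last pair passed the adjusted threshold, and Prss34 (1.82 to 3.26) lies farthest from 0 of the genes drawn.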

How the data were processed

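Counts of reads per gene for each of the 9 libraries were deposited by the authors, raw and unnormalised. Libraries were TruSeq stranded total RNA, read on a NextSeq with single-end reads of 75 nucleotides, per the labels' protocols. STAR, SAMtools, HTSeq and the build mm10 (GRCm38) are named in the submitters' processing notes, while no source used here states the annotation or strand setting of the counting, so that antisense and overlapping genes cannot be told apart. Reads recorded in 5 classes without a single gene, 42.8 to 74.5% of the total, were left out of library sizes and tests.

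Tests used edgeR 4.0.16 (limma 3.58.1, R 4.3.3): filterByExpr, TMM scaling and the quasi-likelihood F test of 1 drug term over all 9 libraries, and a fit with 1 term per group on the same genes for each drug's change and for cisplatin minus oxaliplatin. A gene was called at a Benjamini-Hochberg adjusted p under 0.05, the standard error is the size of the change over the square root of F, and intervals are at 95% confidence. CPM are counts over the TMM-scaled total. Floors of 3 counts cover counting error only. Symbols, positions and exon lengths come from GENCODE release M21, which with RefSeq synonyms matched 96.2% of symbols. The steps were tested on simulated counts.

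Members of the comparison and the 56 gene lists were chosen with earlier results of these data known, and p-values were adjusted over all genes tested. Lists are described by counts and medians only. Genes were named by rule: the 12 largest increases and decreases among called genes without overlap of drug and vehicle libraries, with at least 1 CPM in the higher arm and no predicted symbol; the 3 genes with the smallest p of each list; 12 neuropathy genes; and the 6 called genes nearest to a difference between the drugs. S100a9, Malat1, Slc4a1, Fcer1a, Scn8a, Piezo2, Asic3, Atm, Ercc1, Sprr1a, Egr1 and the genes named because few members of a list moved their way were chosen after their values were seen. Some genes that the rule takes are not reported here.

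Alternatives were median-ratio size factors, unscaled totals, no filter or 1 CPM in 3 libraries, DESeq2 1.42.0, limma-voom, robust empirical Bayes, a term per group, the replicate number as a block, a test against a 1.5-fold change, mitochondrial and ribosomal RNA genes removed, protein-coding genes alone, correction of each library for exon length and GC content (mgcv 1.9.3), each drug alone and leaving out each library. Unscaled totals together with leaving out vehicle library 2 were added after the data were seen.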

Additional observations from a re-analysis of the deposited data

Results flagged for a closer look

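In 11 of 194 genes and library properties checked, 1 of the 6 drug libraries lay far from the other 5 by Dixon's test at its 95% critical value, which chance alone gives in about 1 in 20 groups. Ank3 stood above the other drug libraries in oxaliplatin library 1, at 403 CPM against 279 to 325. C1qb stood below the other drug libraries in cisplatin library 3, at 13.1 CPM against 14.7 to 15.4. Cnp stood above the other drug libraries in cisplatin library 1, at 228 CPM against 193 to 204. Kcnj10 stood above the other drug libraries in cisplatin library 3, at 43.2 CPM against 28.7 to 32.5. Kmt2e stood below the other drug libraries in oxaliplatin library 2, at 29.7 CPM against 34.5 to 37.3. Nkg7 stood above the other drug libraries in cisplatin library 1, at 0.487 CPM against 0.284 to 0.319. Piezo1 stood below the other drug libraries in oxaliplatin library 1, at 11.2 CPM against 12.9 to 13.6. Stx1a stood above the other drug libraries in oxaliplatin library 2, at 32.8 CPM against 30.8 to 31.5. Tac1 stood above the other drug libraries in cisplatin library 1, at 279 CPM against 217 to 231. Thbs2 stood below the other drug libraries in cisplatin library 3, at 31.0 CPM against 34.3 to 36.1. Vgf stood above the other drug libraries in cisplatin library 3, at 51.0 CPM against 34.4 to 40.2. In Fam150b and Prss34 the drugs differed by the test of the difference itself, by 0.58 and 2.54 on the log2 scale, both higher after cisplatin.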

How the results depend on the processing

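The counts of higher and lower genes stayed within 1.5 times the main counts under every alternative run but 3. With unscaled totals there were 7701 higher and 1182 lower, with unscaled totals and without vehicle library 2 there were 6760 and 2769, and against a 1.5-fold change there were 62 and 463, the last by the test's own construction and the others with a cause that was not tested. Leaving out 1 library gave 2629 to 4049 higher and 3434 to 4291 lower. The count of genes that differed between the drugs was 68 with unscaled totals, 15 by DESeq2, 1 by limma-voom, 1 with at least 1 CPM in 3 libraries, 0 in the 6 drug libraries alone and 0 to 2 with 1 library left out. The replicate numbers did not pair the libraries (correlations of same-numbered libraries -0.14 to 0.11), and with the replicate number as a block 3415 genes were higher, 4461 lower and 0 different between the drugs.

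Of the 188 genes named, 156 kept their side of the threshold and their direction with unscaled totals, 182 with DESeq2, 187 with median-ratio size factors and 167 after removal of the GC and length trend. With unscaled totals the median change turned to 0.0664 for sensory neuron identity genes, 0.133 for potassium channel subunits, 0.00588 for synaptic vesicle and release genes, 0.176 for neurofilaments, tubulins and microtubule proteins, 0.0935 for axon guidance ligands and receptors, 0.111 for non-peptidergic and itch neuron markers, 0.0108 for non-myelinating and repair Schwann cell genes, 0.226 for excision, crosslink and translesion repair genes, 0.167 for circadian clock genes and 0.0800 for splicing factors and RNA-binding proteins, and the single-gene change to 0.174 for Car2, 0.157 for Cd55, 0.0724 for Mdm2, 0.0487 for Rpl10a, 0.132 for Rrm1, 0.249 for Slc31a1, 0.239 for Trpv1 and 0.0736 for Tspan2. With vehicle library 2 also left out, the values were 0.0699 for neurofilaments, tubulins and microtubule proteins, 0.0920 for excision, crosslink and translesion repair genes, 0.0557 for circadian clock genes, 0.331 for genes taking ribosomal RNA reads, 0.0367 for Car2, 0.0307 for Cd55, 0.0172 for Rrm1, 0.0888 for Slc31a1 and 0.0901 for Trpv1. After removal of the trend they were 0.0211 for excision, crosslink and translesion repair genes, -0.0175 for heat shock and endoplasmic reticulum stress genes, 0.00602 for circadian clock genes and 0.114 for Rrm1, with the oxaliplatin libraries alone -0.00711 for heat shock and endoplasmic reticulum stress genes, without the count filter 0.00213 for Slc31a1, and with 1 library left out -0.0572 to 0.0118 for Slc31a1, above 0 without vehicle library 1. Without vehicle library 2 the drug minus vehicle difference went from -4.54 to 3.21 percentage points for reads aligned to multiple places and from -1.05 to 1.06 for mitochondrial ribosomal RNA, and with 1 library left out the median of genes taking ribosomal RNA reads was -0.973 to 0.198, the highest without vehicle library 2. With unscaled totals the median over all genes went from 0.01 to 0.30, and the lists and genes that turned with unscaled totals alone all lay below 0.30. They thus stayed below the median gene. The cause of the turns given here was not tested. Scarce genes such as Epx, Prss34 and Slc22a2 rest on few reads and have wide intervals.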

Other observations

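Clock and activity genes were also measured as lists. Of 19 circadian clock genes 7 fell and 3 rose (36.8% and 15.8%, against 26.1% and 20.2% of all genes). Their median of -0.13 became 0.17 with unscaled totals (2 lower and 7 higher) and 0.01 after removal of the length trend. Per1, a repressor of the clock that also answers to glucocorticoids, was at 22.9, 15.4 and 18.2 CPM in the vehicle libraries and from 8.33 to 12.2 (median 9.40) with the drugs. Per1 averaged 9.07 ± 0.781 CPM after cisplatin and 10.2 ± 1.95 after oxaliplatin, a log2 change of -0.98 (SE 0.13, 95% interval -1.26 to -0.70, adjusted p = 5.75e-05). Its paralog Per2 fell (-0.67, adjusted p = 8.82e-04), and Tef (0.32, adjusted p = 0.00714) and Hlf (0.55, adjusted p = 0.0132) were among those that rose. Of 23 immediate early genes 8 fell, among them the nuclear receptor gene Nr4a2 (-0.62, adjusted p = 4.77e-04) and the zinc finger gene Egr1 (-0.78, adjusted p = 0.00619), and 4 rose, Ier5 (0.47, adjusted p = 0.00279), Egr2 (0.38, adjusted p = 0.0308), Jund (0.25, adjusted p = 0.00419) and Ier3 (0.22, adjusted p = 0.0155). With unscaled totals 3 immediate early genes were lower and 9 higher, and without vehicle library 2 8 and 7. Hlf was no longer called without vehicle library 3 (0.42). Egr2 was no longer called without vehicle library 1 (0.33). The calls of Egr2 (0.29) and Ier3 (0.02) were lost after the length and GC correction.

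Genes encoded by the mitochondrial genome, ribosomal RNA genes among them, were lower in 7 of 12 (median -0.65). A fit on protein-coding genes alone held 7 of this list, 5 lower and 1 higher, with a median of -0.62. The nuclear genes of the respiratory chain and ATP synthase had a median of 0.19, and 0.22 in the protein-coding fit. The complex I gene mt-Nd5 was at 170.0, 281 and 254 CPM in vehicle and from 95.8 to 145 (median 115) with the drugs (-0.9998, adjusted p = 9.43e-05), and mt-Nd4 fell by 0.65 (adjusted p = 2.65e-04). Without vehicle library 2 the list had 4 lower and a median of -0.22.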
